A study of Mus musculus with 8 samples.

Results

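The cytochrome P450 genes were described in whole kidneys of 8 mice aged 2 months. Members were all genes with a Cyp symbol followed by digits and letters, without Cyp27b1, Cyp24a1 and Cyp51, and with 1 probe set kept per gene, the one with the highest mean. By this rule 91 of the 22180 genes named on the array were members. The kidneys came from 2 wild type mice, 3 Col4a3-/- mice (single mutants) and 3 Col4a3-/-OPN-/- mice (double mutants), with 1 array per mouse. Both mutant groups share the Col4a3 deletion, so the comparison between them is one of osteopontin (OPN) loss on that background. Col4a3 encodes a collagen chain of the glomerular filter, and mice without it are a model of Alport syndrome, a hereditary kidney disease. The labels used here name no strain, sex or disease stage. Values are log2 expression as deposited, and a difference of 1 is a 2-fold difference.

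Sex was read from the arrays, because many P450 genes of the mouse kidney differ by sex. Arrays with more Xist, the RNA of the inactive X chromosome, than Eif2s3y, a Y-linked gene, were read as female. Xist was between 8.85 and 10.02 on the 4 arrays read as female, which were single mutants 1 and 3 and double mutants 1 and 2. It was between 4.52 and 4.64 on the 4 arrays read as male, which were both wild types, single mutant 2 and double mutant 3. There was no female wild type, so sex and genotype cannot be told apart in a plain comparison with wild type. Single mutant 2 stood apart from the rest, with a correlation of 0.76 to 0.80 over the tested genes with the wild type arrays and of 0.95 with double mutant 3, the other male mutant. The signal of the targeted gene, Col4a3, was 8.77 and 8.42 in wild type, 7.65, 7.67 and 6.60 in the single mutants, and 6.82, 6.13 and 7.60 in the double mutants, and neither mutant differed from wild type by limma (adjusted p = 0.162 and 0.0998). The part of the transcript that the deletion removes was not set against the probes, and the second deletion was not checked.

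Cytochrome P450 enzymes are heme proteins that insert an oxygen atom into lipids, steroids and foreign compounds. Most sit in the endoplasmic reticulum and take electrons from P450 oxidoreductase, and a few sit in mitochondria and take them from ferredoxin. In the kidney they lie mainly in the proximal tubule, where enzymes of the Cyp4a subfamily hydroxylate arachidonic acid at its end and enzymes of the Cyp2c and Cyp2j subfamilies turn it into epoxides, both of which act on vessel tone and salt transport. In mice several of these genes are known to depend on sex hormones, with Cyp4a12a driven by androgen and Cyp4a14 higher in females.

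Many P450 genes lie in clusters of close copies, and the sequences before their starts show how alike or unlike 2 neighbours can be. Below are the 150 bases before the start of 5 genes from RefSeq (GRCm38.p6), chosen because they come from clusters whose members differed in their pattern over the arrays. Cyp2j13 (chr4:96077548-96077697, minus strand) and Cyp2j11 (chr4:96348681-96348830, minus strand) share a cluster, and among the mutants the first was lower and the second higher in females. Cyp2a4 (chr7:26307042-26307191, plus strand) and Cyp2a5 (chr7:26835189-26835338, plus strand) are near copies. Cyp2d9 (chr15:82452227-82452376, plus strand) was high only on the wild type arrays. Capitals mark TATAAA, the core of a TATA box, on either strand, and each sequence runs 5′ to 3′ on the strand of its gene.
Cyp2j13: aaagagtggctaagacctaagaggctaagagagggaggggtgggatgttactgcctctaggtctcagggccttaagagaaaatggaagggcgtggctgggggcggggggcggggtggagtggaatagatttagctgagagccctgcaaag
Cyp2j11: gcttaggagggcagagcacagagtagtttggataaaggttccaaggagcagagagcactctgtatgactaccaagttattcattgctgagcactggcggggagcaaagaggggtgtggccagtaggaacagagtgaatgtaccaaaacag
Cyp2a4: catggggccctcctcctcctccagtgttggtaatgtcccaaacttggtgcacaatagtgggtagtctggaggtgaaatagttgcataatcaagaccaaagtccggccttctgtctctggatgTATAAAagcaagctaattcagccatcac
Cyp2a5: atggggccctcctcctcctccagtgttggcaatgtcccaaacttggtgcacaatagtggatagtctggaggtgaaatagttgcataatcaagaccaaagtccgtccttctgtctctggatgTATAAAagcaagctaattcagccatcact
Cyp2d9: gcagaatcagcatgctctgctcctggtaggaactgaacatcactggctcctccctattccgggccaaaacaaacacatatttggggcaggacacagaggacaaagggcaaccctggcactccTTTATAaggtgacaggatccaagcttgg
With a shift of 1 base, the windows of Cyp2a4 and Cyp2a5 held the same base at 146 of 149 positions. The windows of Cyp2j13 and Cyp2j11 held the same base at 49 of 149 positions under the same search, which allowed no gaps and shifts of at most 5 bases. Of the 91 members, 70 had a promoter in the RefSeq table, and 14 of these were among the members tested. In the 250 bases before the start, on both strands, TATAAA was found in 4 of these 14 and in 13% of all 27025 promoters. AGAACA, a half-site of the androgen and glucocorticoid receptors, was found in 3 of 14 and in 16.1% of all promoters. AGGTCA, a half-site of many other nuclear receptors, was found in 1 of 14 and in 13.8% of all promoters. Neither Cyp2j window held any of the 3 motifs. These matches are letters in a window and not binding sites.

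Most members gave a dim signal. Genes were tested where their mean exceeded 6.64, which 75% of the array's probe sets did not reach (the 75th percentile), and 22 of the 91 members passed this filter while 69 did not. Of those 69, 14 lay above the median probe set (5.22) and 55 below it. Close copies in the Cyp2a, Cyp2c, Cyp2d, Cyp2j and Cyp4a subfamilies share sequence, so a probe set named for one may also have taken up RNA of another.

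By subfamily, the foreign-compound enzymes of the Cyp3 family (7 members) had means from 4.34 to 4.74 and those of Cyp2b (5 members) from 4.34 to 4.80, with none above the filter. In the large Cyp2c subfamily 1 of 14 members, the arachidonate epoxygenase Cyp2c23, passed, and in Cyp2d 2 of 9 passed, Cyp2d22 and Cyp2d26. Cyp2j, the other epoxygenase subfamily, had 5 of 7 members above the filter, namely Cyp2j5, Cyp2j6, Cyp2j9, Cyp2j11 and Cyp2j13. Among the fatty acid hydroxylases, 4 of 6 Cyp4a members passed (Cyp4a12a, Cyp4a12b, Cyp4a14 and Cyp4a31), as did Cyp4b1 and 1 of 9 Cyp4f members, Cyp4f13. Of the sterol and bile acid enzymes 3 of 6 passed, namely Cyp7b1, Cyp27a1 and Cyp39a1. The other members that passed were Cyp2a4 (1 of 4 in Cyp2a), Cyp1b1 (1 of 3 in Cyp1), Cyp2e1, Cyp2s1 and Cyp20a1.

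None of the 5 steroid hormone enzymes passed, with means from 4.53 to 4.87, and none of the 3 retinoic acid enzymes did, with means from 4.53 to 6.23. The 5 brightest members below the filter were Cyp4f17, Cyp4v3, Cyp2d9, Cyp2u1 and Cyp2f2. Cyp4v3 and Cyp2u1, both fatty acid hydroxylases, ranged over the 8 arrays from 5.95 to 7.14 and from 5.96 to 6.73, and Cyp4f17, another member of the Cyp4f subfamily, from 6.49 to 7.02. Cyp4a10, whose enzyme hydroxylates fatty acids, shared its bright probe set with Cyp4a31 and was therefore not a member by itself. That shared probe set read 10.85 and 9.53 in wild type, 11.17, 8.85 and 11.25 in the single mutants, and 12.02, 11.23 and 10.09 in the double mutants, so that it was lowest on single mutant 2 and highest on double mutant 1.

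**Figure D1:**
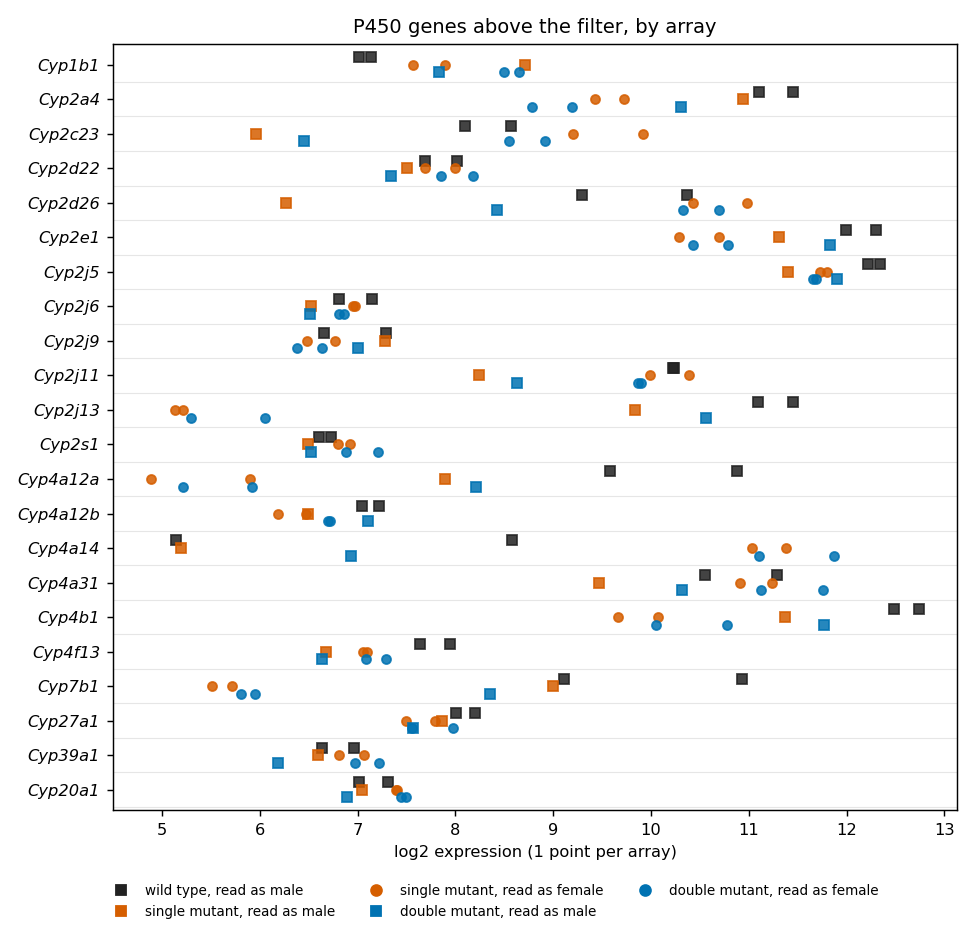
Each point is the log2 expression (horizontal axis) of 1 P450 gene above the filter (rows) on 1 array; colour gives the genotype, squares are arrays read as male and circles arrays read as female. Circles and squares separate widely for Cyp2j13, Cyp4a14 and Cyp7b1, and the 2 male mutants stand alone at the low end for Cyp2c23, Cyp2d26 and Cyp2j11.

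Many of the P450 genes differed by sex. In a limma fit with a term for genotype and a term for sex, 11 of the 22 members differed between female and male arrays, 5 higher and 6 lower in females, while 8.22% of all tested genes were called higher and 1.97% lower. This difference is estimated within the mutants, because wild type had males only. Without single mutant 2, which leaves double mutant 3 as the only male mutant, 3 of the 11 stayed called, namely Cyp2j13, Cyp2c23 and Cyp2j11, and the share of all genes fell as well, to 1.55% higher and 0.392% lower. Of the 11, Cyp2j13, Cyp4a12a and Cyp7b1 passed the filter through the male arrays and Cyp4a14 through the female arrays, so the count of 11 is a description. The sex differences and adjusted p given below for these genes are likewise a description. On 6 members all 4 female arrays lay below all 4 male arrays, a pattern that 2.37% of the tested genes showed, and on 3 members (Cyp20a1, Cyp2s1 and Cyp4a14) all 4 lay above, as for 4.11% of the tested genes.

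Cyp2j13, of the arachidonate epoxygenase subfamily, read 11.10 and 11.45 in wild type, 5.13, 9.84 and 5.21 in the single mutants, and 5.30, 6.05 and 10.56 in the double mutants. The 4 male arrays were all high. The 4 female arrays, all of them mutants, lay near the median probe set (5.22) or somewhat above it, in both mutant groups. The log2 difference of females from males was -4.78 (SE 0.21, adjusted p = 7.41e-05 by limma), and without single mutant 2 the call held. No fold is given for this gene or for the next ones with values this dim, because their low signals were not shown to lie above background. Cyp4a12a, the arachidonate hydroxylase of the male mouse kidney, read 9.58 and 10.88 in wild type, 5.90, 7.90 and 4.89 in the single mutants, and 5.22, 5.92 and 8.21 in the double mutants. The male mutants lay between the wild type males above and the female mutants below, with no overlap. The log2 difference of females was -2.57 (SE 0.41, adjusted p = 0.0133), and without single mutant 2 the adjusted p was 0.0714.

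Cyp7b1, which hydroxylates oxysterols and steroids, showed the same order. It read 9.11 and 10.94 in wild type, 5.51, 9.0 and 5.71 in the single mutants, and 5.81, 5.95 and 8.36 in the double mutants, and the log2 difference of females was -2.93 (SE 0.45, adjusted p = 0.0122). Single mutant 2 came close to wild type 1, and wild type 2 lay well above both. Cyp4b1, a hydroxylase of shorter fatty acids, read 12.48 and 12.74 in wild type, 9.66, 11.37 and 10.07 in the single mutants, and 10.77, 10.06 and 11.77 in the double mutants. Its male mutants again lay between wild type and the female mutants, and females fell by 1.43 (SE 0.22, adjusted p = 0.0117).

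Smaller differences in the same direction were found for Cyp2a4 and Cyp2e1. Cyp2a4, a testosterone hydroxylase, read 11.11 and 11.45 in wild type, 9.72, 10.94 and 9.42 in the single mutants, and 9.19, 8.78 and 10.31 in the double mutants. Cyp2e1, which oxidises ethanol and other small molecules, read 11.999 and 12.30 in wild type, 10.70, 11.31 and 10.29 in the single mutants, and 10.42, 10.78 and 11.83 in the double mutants. For both genes the female mutants were lowest, the male mutants came next and wild type was highest. Females fell by 1.34 for Cyp2a4 (SE 0.17, adjusted p = 0.00676) and by 1.02 for Cyp2e1 (SE 0.19, adjusted p = 0.0189). Without single mutant 2 the adjusted p was 0.0525 for Cyp2a4, 0.058 for Cyp2e1, 0.0895 for Cyp7b1 and 0.0753 for Cyp4b1.

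**Figure D2:**
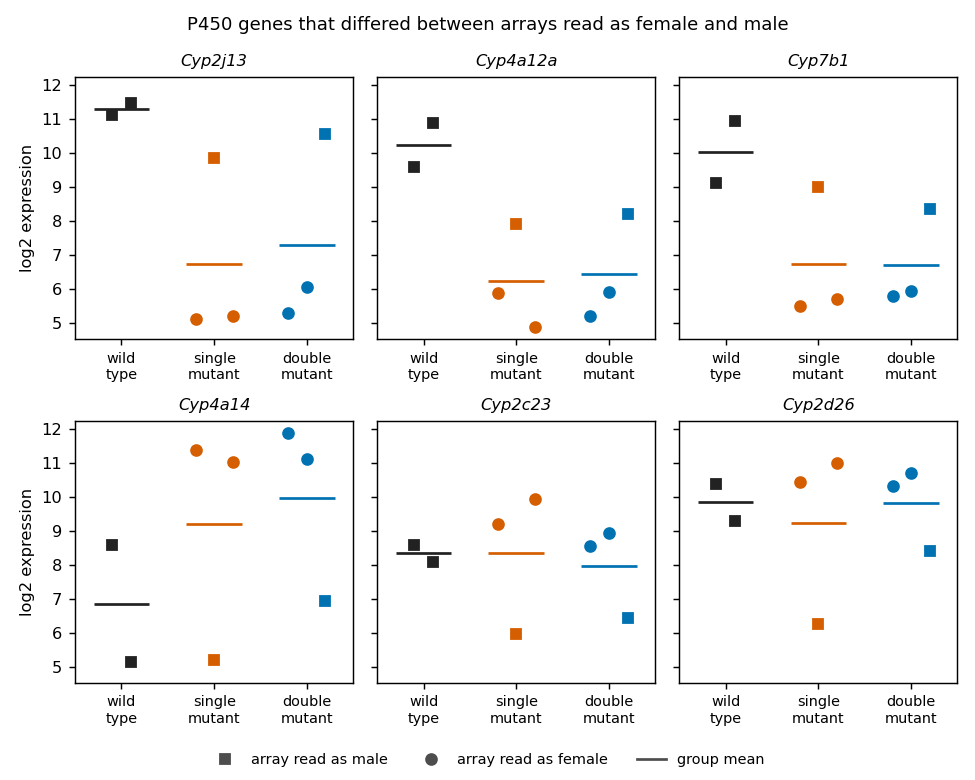
Points are single arrays and lines are group means of log2 expression (vertical axis) in wild type, single mutants and double mutants, for 3 genes lower in females (top) and 3 higher in females (bottom). On Cyp2j13 the 4 squares (male) lie between 9.84 and 11.45 and the 4 circles (female) between 5.13 and 6.05, while on Cyp2c23 the 2 male mutants (5.95 and 6.45) lie below every other array.

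Of the members called higher in females, only Cyp4a14 had all 4 female arrays above all 4 male arrays. Cyp4a14, a fatty acid hydroxylase, read 8.58 and 5.14 in wild type, 11.38, 5.19 and 11.03 in the single mutants, and 11.87, 11.10 and 6.93 in the double mutants. The female arrays were uniformly high and the males spread widely, also between the 2 wild type mice. The log2 difference of females was 5.28 (SE 0.84, adjusted p = 0.0133), with 2 of the male arrays near the median probe set, and without single mutant 2 the difference was 4.56 with an adjusted p of 0.0927. Cyp4a31, of the same subfamily, read 11.29 and 10.55 in wild type, 11.24, 9.46 and 10.90 in the single mutants, and 11.76, 11.13 and 10.32 in the double mutants, with the lowest values on the 2 male mutants. Females were higher by 1.36 (SE 0.26, adjusted p = 0.0223), and without single mutant 2 by 1.12 (adjusted p = 0.145).

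In the other 3 genes called higher in females, the wild type males lay with or near the female mutants, and only the 2 male mutants were low. Cyp2c23 read 8.57 and 8.10 in wild type, 9.20, 5.95 and 9.92 in the single mutants, and 8.54, 8.92 and 6.45 in the double mutants. Cyp2d26, of a subfamily of drug-oxidising enzymes, read 10.37 and 9.30 in wild type, 10.43, 6.26 and 10.98 in the single mutants, and 10.32, 10.70 and 8.42 in the double mutants. Cyp2j11 read 10.24 and 10.23 in wild type, 9.99, 8.24 and 10.39 in the single mutants, and 9.90, 9.87 and 8.63 in the double mutants.

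In all 3 the lowest array was single mutant 2 and the next lowest double mutant 3. Female mutants were higher than male mutants by 2.95 for Cyp2c23 (SE 0.33, adjusted p = 0.00472), by 3.27 for Cyp2d26 (SE 0.52, adjusted p = 0.0133) and by 1.60 for Cyp2j11 (SE 0.18, adjusted p = 0.00472). Without single mutant 2 the difference for Cyp2d26 was 2.09 (adjusted p = 0.0606). Since no female wild type was measured, these values do not say whether females exceed males in wild type.

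Read by genotype alone, none of the 22 P450 genes above the filter was called against wild type in either mutant. In the single mutant 0 of 22 members were called, beside 0.014% of all tested genes higher and 0.014% lower, and 10 members had an unadjusted p under 0.05 in limma, as had 1656 of the 7145 genes. In the double mutant 0 of 22 were called, beside 0.056% higher and 0.028% lower, and 8 members had an unadjusted p under 0.05, as had 1544 genes. The median difference of the 22 members was -0.50 in the single and -0.33 in the double mutant, and that of all genes was -0.07 and -0.08. The 5 members with the smallest p in the single mutant were Cyp4a12b (-0.75, SE 0.18), Cyp2j5 (-0.64, SE 0.16), Cyp4b1 (-2.24, SE 0.58), Cyp4a12a (-4.00, SE 1.06) and Cyp4f13 (-0.85, SE 0.23), with adjusted p between 0.103 and 0.118.

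In the double mutant the smallest p belonged to Cyp4a12a (-3.78, SE 1.06), Cyp1b1 (1.25, SE 0.36), Cyp4f13 (-0.79, SE 0.23), Cyp2a4 (-1.85, SE 0.53) and Cyp2j5 (-0.53, SE 0.16), with adjusted p between 0.107 and 0.127. Cyp2j13, the gene with the smallest p for sex, differed by -4.55 and -3.97 with a standard error of 1.81, against 0.27 once sex was in the fit. When arrays were weighted by their fit to the model, 9 members were called in each mutant, all lower in the single mutant and 8 lower and 1 higher in the double mutant. The calls over all genes rose too, to 7.25% lower and 4.04% higher in the single and 9.41% lower and 8.4% higher in the double mutant. Without single mutant 2, 3 members were called in the double mutant, namely Cyp4a12a (adjusted p = 0.0404), Cyp1b1 (0.0299) and Cyp2a4 (0.0381), beside 4.17% of all genes lower and 4.09% higher. The group ranges were read without a model. On 9 of 22 members all 6 mutant arrays lay below both wild types, as for 21.4% of the tested genes, and on 1 (Cyp1b1) all 6 lay above, as for 13.1%. Of the 9, Cyp2a4, Cyp2e1, Cyp2j13, Cyp4a12a, Cyp4b1 and Cyp7b1 also had every female array below every male array. Cyp4a12a had passed the filter through wild type alone.

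**Figure D3:**
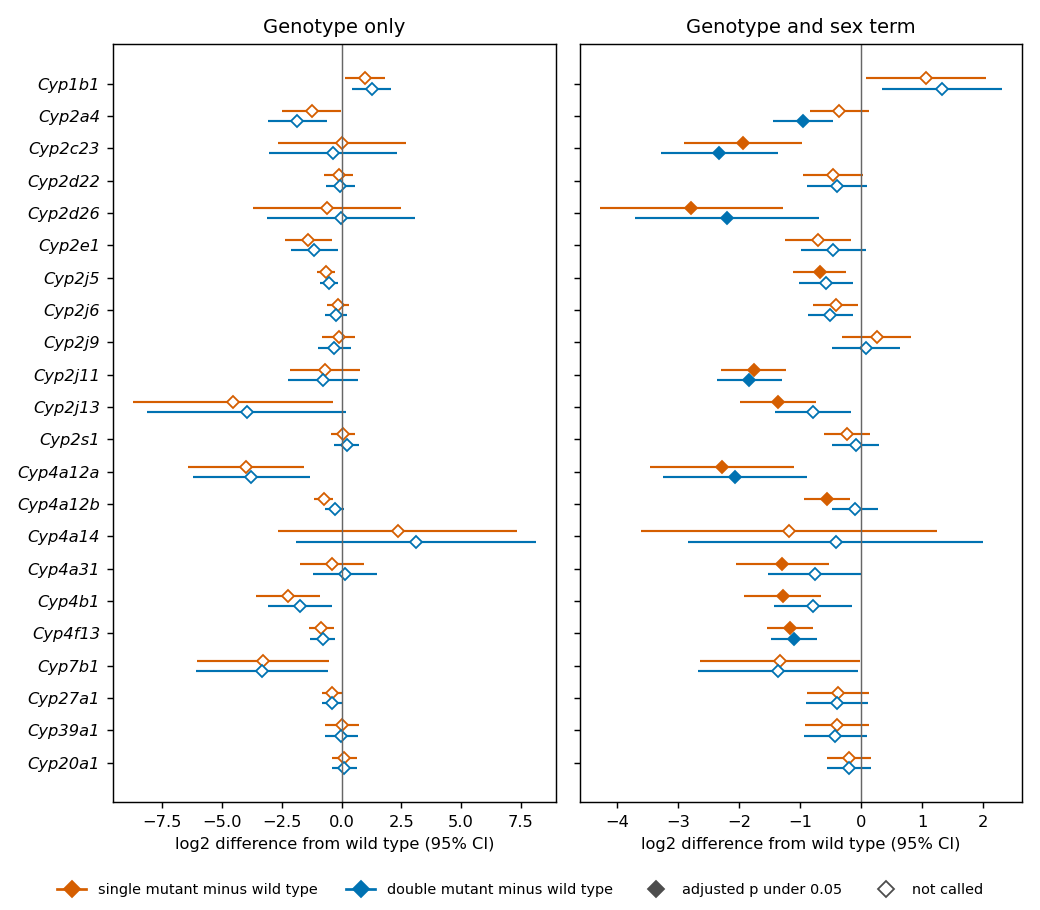
Diamonds are log2 differences from wild type (horizontal axis, lines are 95% confidence intervals, and the scales of the panels differ) for the single and the double mutant, in the fit of genotype alone (left) and with a sex term (right); filled diamonds have an adjusted p under 0.05. No member is filled on the left, and on the right 10 are filled for the single and 6 for the double mutant, all to the left of 0.

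With the sex term, 10 of 22 members fell and 0 rose in the single mutant, beside 19.9% of all tested genes lower and 7.31% higher. In the double mutant 6 of 22 fell and 0 rose, beside 17.8% lower and 6.4% higher. The median difference of the members was -0.69 and -0.54, and that of all genes -0.15 and -0.15. Cyp4a12a, called in both mutants, had means below the filter in both (6.23 and 6.45) and passed it through wild type alone. Cyp4a12b, called in the single mutant, had a mean below the filter there (6.38). The counts over members that passed the filter are therefore a description. This fit takes the effect of sex as the same in all genotypes.

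Among the epoxygenases, Cyp2c23 differed with the sex term by -1.94 in the single mutant (SE 0.42, adjusted p = 0.0169) and by -2.33 in the double mutant (SE 0.42, adjusted p = 0.0125). By genotype alone its differences were 0.03 and -0.36. Cyp2j11 fell by 1.76 (SE 0.23, adjusted p = 0.00744) and fell by 1.83 (SE 0.23, adjusted p = 0.00705). For Cyp2c23 the female mutants (9.20 and 9.92 in the single, 8.54 and 8.92 in the double mutant) lay mostly above the wild type males (8.57 and 8.10). For Cyp2j11 the female mutants overlapped or lay near the wild type males. The lower fitted values of both genes rest on the male mutants and on the sex term. Cyp2j13 fell in the single mutant by 1.37 (SE 0.27, adjusted p = 0.0134), and in the double mutant it differed by -0.79 (SE 0.27, adjusted p = 0.0643).

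Cyp2j5, the epoxygenase typical of the mouse kidney, read 12.22 and 12.35 in wild type, 11.73, 11.40 and 11.80 in the single mutants, and 11.65, 11.69 and 11.90 in the double mutants. All 6 mutant arrays were below both wild types, and females and males did not separate. With the sex term it fell in the single mutant by 0.68 (SE 0.19, adjusted p = 0.0343) and differed in the double mutant by -0.58 (SE 0.19, adjusted p = 0.059). Cyp2j6 and Cyp2j9, of the same subfamily, were dimmer, with ranges over all arrays of 6.51 to 7.15 and 6.38 to 7.29, and were not called in any comparison.

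Among the fatty acid hydroxylases, Cyp4f13, of the subfamily that also acts on leukotrienes, read 7.64 and 7.94 in wild type, 7.09, 6.68 and 7.05 in the single mutants, and 7.29, 7.09 and 6.64 in the double mutants. All 6 mutants lay below both wild types, with the male mutants lowest. It fell by 1.16 in the single (SE 0.16, adjusted p = 0.00772) and by 1.10 in the double mutant (SE 0.16, adjusted p = 0.0108). Cyp4a12a differed by -2.29 and -2.06 (SE 0.51 for both), which is a description, since a gene that passed the filter through wild type alone had to be lower in the mutants.

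Cyp4a12b, a near copy of Cyp4a12a, read 7.04 and 7.22 in wild type, 6.19, 6.49 and 6.47 in the single mutants, and 6.70, 6.71 and 7.11 in the double mutants. The single mutants were all below wild type, while double mutant 3 overlapped it. In the single mutant it differed by -0.56 (SE 0.16, adjusted p = 0.0401), a call lost in 10 of 18 alternatives, among them quantile normalization (0.0574), cyclic loess (0.0546) and leaving out single mutant 2 (0.311). Its difference in the double mutant was -0.10 (SE 0.16). Cyp4b1 fell in the single mutant by 1.29 (SE 0.27, adjusted p = 0.0162) and differed by -0.79 in the double (SE 0.27, adjusted p = 0.0679). Cyp4a31 differed by -1.30 in the single mutant (SE 0.33, adjusted p = 0.0272) and by -0.76 in the double, and by genotype alone by -0.39 and 0.15, so that its direction in the double mutant turned with the sex term. The single mutant call was lost in 7 of 18 alternatives, among them quantile normalization (0.0582) and cyclic loess (0.0503). Cyp4a14, with its scattered male values, differed by -1.18 and -0.41 (SE 1.04 for both), and the sign changed without wild type 1 (0.54 and 1.31).

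Of the remaining foreign-compound enzymes, Cyp2d26 differed by -2.79 (SE 0.65, adjusted p = 0.0213) in the single and by -2.20 (SE 0.65, adjusted p = 0.0451) in the double mutant. Its plain means were 9.83 in wild type, 9.23 in the single and 9.81 in the double mutant. The female mutants (10.32 to 10.98) lay with or above the wild type males (10.37 and 9.30). The lower fitted values of Cyp2d26 therefore rest on the male mutants and on the sex term. The call in the double mutant was lost when any 1 of 7 arrays was left out, the exception being double mutant 3. Cyp2a4 fell in the double mutant by 0.96 (SE 0.21, adjusted p = 0.0197) and differed in the single mutant by -0.36 (SE 0.21, adjusted p = 0.228). Cyp2e1 differed by -0.70 (SE 0.23, adjusted p = 0.0577) and by -0.46. Cyp2d22 and Cyp2s1, and also Cyp20a1 of a family not grouped with these enzymes, were not called in either mutant, with differences from -0.46 to -0.09.

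None of the 3 sterol enzymes was called with all arrays. Cyp7b1 differed by -1.33 (SE 0.56, adjusted p = 0.112) and -1.36 (SE 0.56, adjusted p = 0.11). Leaving out 1 array moved these values between -2.24 and -0.41 and between -2.27 and -0.45, and without wild type 1 both were called (adjusted p = 0.0189 and 0.0222). Cyp27a1, the mitochondrial sterol hydroxylase, read 8.20 and 8.001 in wild type, 7.79, 7.86 and 7.49 in the single mutants, and 7.98, 7.55 and 7.56 in the double mutants. Every mutant value was below both wild types, narrowly so in double mutant 1, and the fitted differences were -0.38 and -0.39 (SE 0.22). Cyp39a1, an oxysterol hydroxylase, ranged from 6.19 to 7.22 over all arrays, with its lowest value on double mutant 3.

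These counts depended on single arrays, as did those over all genes. Without wild type 2, 0 members were called in the single and 0 in the double mutant, beside 0.574% and 0.462% of all genes lower. Without single mutant 2, 0 members and 0% of all genes were called in the single mutant. Without wild type 1, 6 members were called in the single mutant, beside 12.7% of all genes lower. Of 18 alternatives, 2 ended the single mutant calls of Cyp2j11, Cyp2j13 and Cyp4f13, 3 that of Cyp4b1, 4 those of Cyp2c23 and Cyp2d26, and 6 that of Cyp2j5. For the double mutant, 1 ended the calls of Cyp2c23, Cyp2j11 and Cyp4f13, 4 that of Cyp2a4 and 12 that of Cyp2d26. Leaving out single mutant 2 also changed sizes. The single mutant then differed from wild type by -1.22 for Cyp2d26, -1.06 for Cyp2c23, -0.28 for Cyp2j5 and -2.19 for Cyp4a12a. In that setting the single mutants were all female and the wild types male, so calls and sizes took the effect of sex from the double mutants. The split over all genes depended on scaling, with 522 genes higher and 1424 lower in the single mutant as deposited, 811 and 1043 after quantile normalization and 814 and 1029 after cyclic loess. In the double mutant it was 457 and 1271, 671 and 890, and 709 and 851. For females against males it was 587 higher and 141 lower as deposited, 436 and 232, and 369 and 222. The members called in the single mutant were 8 and 7 under these 2 normalizations, all of them lower and among the 10 named.

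The males alone gave a comparison that needs no equal effect of sex, with 1 male per mutant group, each assumed to vary like the other arrays. The p-values borrow that spread, so genotype and the single mouse cannot be told apart. The single mutant male is the array that stood apart from the rest. These fits are not a separate check, because they repeat fits of the sex term with 1 array left out. The single mutant values are those without double mutant 3, and the double mutant values those without single mutant 2. In the single mutant male 11 of 22 members were lower and 1 higher than in wild type males, beside 20% of all tested genes lower and 10% higher. In the double mutant male 4 were lower and 1 higher, beside 11.8% and 4.49%. Cyp2c23 differed by -2.38 (adjusted p = 0.00426) and -1.89 (adjusted p = 0.021), and Cyp2j11 by -1.99 (adjusted p = 0.00144) and -1.60 (adjusted p = 0.00868). Cyp4f13 differed by -1.11 and -1.15, and was called in both. Cyp2d26 differed by -3.57 (adjusted p = 0.0026) in the single mutant male and by -1.41 (adjusted p = 0.0683) in the double mutant male.

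Cyp1b1, which oxidises aromatic hydrocarbons and estradiol, was the tested member with all mutants above wild type. It read 7.13 and 7.01 in wild type, 7.57, 8.71 and 7.89 in the single mutants, and 8.65, 8.50 and 7.83 in the double mutants. The highest array was the male single mutant, while in the double mutants the 2 females were above the male. With the sex term its difference was 1.07 in the single mutant (SE 0.42, adjusted p = 0.0942) and 1.33 in the double mutant (SE 0.42, adjusted p = 0.0551). In males alone it was higher by 1.64 (adjusted p = 0.00214) and by 0.76 (adjusted p = 0.0395). The double mutant call was made under quantile normalization (adjusted p = 0.0483), cyclic loess (0.0422), array weights (0.042) and the replicate block (0.04755). It was also made without double mutant 3 (difference 2.49, adjusted p = 0.0015), but the double mutants were then all female. That difference took the effect of sex from the single mutants, whose male, single mutant 2, had the highest Cyp1b1. Without single mutant 2 the single mutant difference was -0.09 with the sex term, a change of direction. Both remaining single mutants still read higher than both wild types. They were female and the wild types male, so this difference took the effect of sex from the double mutants.

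Several members below the filter were high only on the wild type arrays. Cyp2d9, a testosterone hydroxylase, read 8.39 and 7.90 in wild type, 5.95, 5.88 and 5.84 in the single mutants, and 5.80, 5.50 and 6.37 in the double mutants. Cyp2f2, which oxidises naphthalene in the airways, read 7.67 and 7.93 in wild type, 5.86, 5.56 and 6.44 in the single mutants, and 5.93, 5.69 and 6.02 in the double mutants. The gap to wild type was at least as wide as the whole spread of the 6 mutants in both genes, and male and female mutants did not separate. A second probe set of Cyp2f2 was dimmer, at 5.23 and 5.83 in wild type and 4.67 to 4.88 in the 6 mutants, and had the same order.

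Cyp2d12 and Cyp2a5 had the same pattern and were chosen after their values were seen. Cyp2d12 read 7.58 and 8.21 in wild type, 6.36, 4.56 and 6.17 in the single mutants, and 5.80, 6.39 and 5.58 in the double mutants. Cyp2a5, a coumarin hydroxylase and near copy of Cyp2a4, read 5.71 and 6.01 in wild type, 4.99, 5.01 and 5.23 in the single mutants, and 5.27, 4.93 and 5.02 in the double mutants. In Cyp2d12 the 2 male mutants lay below the 4 female mutants. In Cyp2a5 they lay among the females. Its mutant values (4.93 to 5.27) were near the median probe set (5.22), so this order cannot be set against that of Cyp2a4. Cyp26b1, which degrades retinoic acid and was likewise chosen afterwards, read 6.69 and 6.71 in wild type and 5.69 to 6.66 in the mutants, so that all 6 were lower, the nearest by very little.

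After their values were seen, these genes were also fitted under a filter at the 50th percentile (5.22), which 36 members and 13062 genes passed. The calls of Cyp2d9 and Cyp2f2 under this filter are therefore a description. Cyp2a5 passed it through its wild type values, since its mutant means were 5.08 and 5.07. By genotype alone 2 of the 36 members were called in the double mutant, beside 0.0842% of all genes lower, and these were Cyp2d9 (log2 difference -2.26, SE 0.25, adjusted p = 0.0323) and Cyp2f2 (-1.92, SE 0.25, adjusted p = 0.0487). In the single mutant 0 members were called, beside 0.00766% higher and 0.00766% lower, and the differences were -2.26 and -1.85, both with an adjusted p of 0.0629. The double mutant calls were lost in 9 of 16 alternatives for Cyp2d9 and in 11 of 16 for Cyp2f2. Among these were no filter (adjusted p = 0.0805 and 0.0814), quantile normalization (0.0506 and 0.0553), the replicate block (0.086 for both), and leaving out wild type 1 (0.128 and 0.14), wild type 2 (0.281 and 0.392), single mutant 1 (0.102 and 0.107), double mutant 1 (0.127 and 0.131) or double mutant 2 (0.134 and 0.204). Leaving out single mutant 3 (0.0561) ended the call for Cyp2d9 alone, and cyclic loess (0.0509), the mean of probe sets (0.063) and leaving out double mutant 3 (0.0535) ended that for Cyp2f2 alone.

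With the sex term under that filter, 14 of 36 members were lower in the single mutant, beside 11.9% of all genes, and 9 of 36 in the double mutant, beside 10.6%. None of the 36 was higher, 0 in the single mutant beside 5.78% of all genes and 0 in the double mutant beside 5.73%. Cyp2d9 differed by -2.02 in both mutants (adjusted p = 0.00918 and 0.00933), and Cyp2f2 by -1.97 and -2.04 (adjusted p = 0.0103 and 0.0111). In the single mutant both calls were lost without wild type 2 (adjusted p = 0.059 and 0.0768) and without single mutant 2 (0.0928 and 0.103), and in the double mutant that of Cyp2f2 was lost without wild type 2 (0.0747). Cyp2d12 differed by -2.93 and -2.70 and Cyp2a5 by -0.84 and -0.85, values given as a description because both genes were picked for this pattern. On 14 of the 36 members all 6 mutants lay below both wild types, as for 16.3% of the genes above this filter, and on 1 they lay above, as for 13%.

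**Figure D4:**
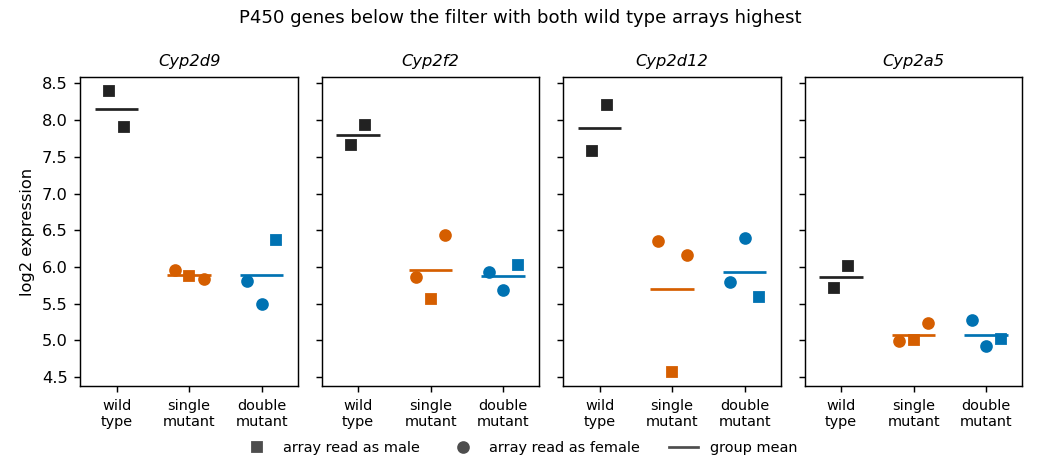
Points are single arrays and lines group means of log2 expression (vertical axis) for 4 P450 genes below the 75th percentile filter, with squares for arrays read as male and circles for arrays read as female. In each panel both wild type arrays lie above all 6 mutant arrays, and both male mutants lie below the 4 female mutants only in Cyp2d12.

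No P450 gene was called between the double and the single mutant. Of 22 members 0 were called, beside 0% of all tested genes, with the sex term and without it. By limma with the sex term 4 members had an unadjusted p under 0.05, as had 273 of all genes, and without it 1 member and 104 genes had. The 4 were Cyp2a4 (-0.60, 95% confidence interval -0.97 to -0.23, unadjusted p = 0.00602), Cyp4a12b (0.46, 0.17 to 0.75, unadjusted p = 0.00649), Cyp2j13 (0.58, 0.11 to 1.05) and Cyp4b1 (0.50, 0.02 to 0.98), each with an adjusted p of 0.993. On Cyp4a12b all 3 double mutants read higher than all 3 single mutants, the one member without overlap, as for 2.02% of all tested genes.

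The intervals of the other members leave room for sizeable differences, such as -0.55 to 1.73 for Cyp2d26 and -1.06 to 2.60 for Cyp4a14. The median difference was 0.08 over the members and 0.00 over all genes. Whether the difference between the mutants itself varied with sex was tested in a fit with a mean for each genotype and sex, and 0 members and 0% of all genes were called, with 5 members and 913 genes at an unadjusted p under 0.05. The member nearest to a call was Cyp1b1, which was higher in double than single mutant females by 0.85 and differed by -0.89 in males (difference of differences 1.73, SE 0.27, adjusted p = 0.0591). For Cyp2d26 the same value was -2.35 (SE 0.62, adjusted p = 0.173).

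Partner genes of the P450 system were counted in the same fits. Of 15 genes listed as redox partners and heme enzymes 11 were measured and 10 tested, and with the sex term 3 fell in each mutant and 0 rose, beside the 19.9% and 17.8% of all tested genes that were lower. Cyb5b, the cytochrome b5 of the outer mitochondrial membrane, differed by -1.62 (adjusted p = 0.00961) and -1.38 (adjusted p = 0.0141). Fech, which inserts iron into heme, differed by -0.95 (adjusted p = 0.0118) and -0.91 (adjusted p = 0.0145), and Pgrmc1, a heme-binding partner of P450 enzymes, by -0.52 (adjusted p = 0.0457) and -0.64 (adjusted p = 0.0273). For Pgrmc1 the female mutants (9.31 to 9.63) lay with or near the wild type males (9.56 and 9.35), while the male mutants read 8.86 and 8.89. Its lower fitted values therefore rest on the male mutants and on the sex term. Of 14 listed nuclear receptors and partners 13 were measured and 11 tested, with 2 lower in the single mutant (Hnf4a, -0.63, adjusted p = 0.0378, and Nr1h3, -0.58, adjusted p = 0.038) and 1 in the double mutant (Hnf4a, -0.76, adjusted p = 0.0243), shares no higher than those of all tested genes. Without the sex term 0 genes of either list were called. Tbxas1 and Ptgis, the thromboxane and prostacyclin synthases, which are P450 enzymes without a Cyp symbol, were below the filter.

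Markers of kidney cell types moved with the same arrays. The mean of 10 proximal tubule markers was 11.51 and 11.53 in wild type, 10.59, 9.91 and 10.84 in the single mutants, and 10.54, 10.38 and 10.69 in the double mutants, with the lowest value on single mutant 2. With the sex term 7 of the 10 fell in the single mutant and 6 in the double mutant, beside 19.9% and 17.8% of all tested genes, and 0 rose. One of them, Slc7a13, a transporter of the last part of the proximal tubule, was itself split by sex, at 4.78 to 5.30 on female and 9.18 to 11.20 on male arrays. It pulled down the marker mean on the female arrays, so the order of these means among the mutants leans on this gene. The mean of 6 macrophage markers was 6.46 and 6.67 in wild type, 7.56, 9.03 and 7.49 in the single mutants, and 8.32, 8.56 and 8.36 in the double mutants, and with the sex term 4 of the 5 tested rose in both mutants, beside 7.31% and 6.4% of all tested genes. Without the sex term 0 tubule and 0 macrophage markers were called in either mutant. With it, leaving out single mutant 2 left 0% of all genes called in the single mutant, markers included.

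Single mutant 2 had the lowest tubule and the highest macrophage mean, and it also had the lowest Cyp2c23, Cyp2d26, Cyp2j11, Cyp2j5 and Cyp4a31 and the highest Cyp1b1. In whole tissue, fewer cells of a type and less RNA per cell cannot be told apart, and the part of these markers in the P450 differences was not tested. The mean of 6 adrenal markers was between 4.81 and 4.91 on every array with none above the filter, and the mean of 4 fat markers between 5.04 and 5.88. Of 8 liver markers 1 passed the filter, Ttr, and their mean was between 5.79 and 6.42.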

How the data were processed

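Total RNA of 8 kidneys was measured on a whole-transcript mouse gene array, 1 array per mouse, as the series text gives the number of mice per group. The deposited values are log2 expression by the authors, 1 per probe set and array, and how they were normalized is not stated in the labels. The unit was read from the range of the values. Of 33793 probe sets, 23521 named 1 gene by the platform annotation, 1814 several and 8458 none, and only the first were used. For a gene with several probe sets the one with the highest mean was kept, which concerned 4 members. Positions are from RefSeq (GRCm38.p6).

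Values were used as deposited. The filter at the 75th percentile left 7145 genes to test. Groups were compared by lmFit and eBayes of limma 3.58.1 (R 4.3.3), all 8 arrays in 1 fit, two-sided, with Benjamini-Hochberg adjustment over all tested genes and calls under 0.05. The fits had 5 residual degrees of freedom by genotype, 4 with a sex term and 3 with a mean for each genotype and sex. Figures were drawn with matplotlib 3.10.9. The fits were tested on simulated data with independent noise around a mean per gene and known changes in the single mutant. Those data held no effect of sex and no outlying array, so they do not bear on either. Members, lists and tests were chosen with earlier results of these data known. Named are members above the filter, the 5 brightest below it, and called members or those with the smallest p, besides those said to be chosen afterwards. The number of arrays limits the precision. Alternatives were other filters, array weights, median centring, quantile or cyclic loess normalization, a robust prior with an intensity trend, mean probe sets, the replicate number as a block, males only and leaving out each array. The 50th percentile filter for Cyp2d9, Cyp2f2, Cyp2d12 and Cyp2a5 was added after the data were seen.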

Additional observations from a re-analysis of the deposited data

How the results depend on the processing

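Counts of P450 genes called were within 1.5 times of those reported except as follows. By genotype alone, array weights called 9 in the single mutant and 9 in the double mutant, the 50th percentile filter called 2 in the double mutant, and leaving out 1 array gave 0 to 0 in the single, 0 to 3 in the double mutant and 0 to 0 between the mutants. With the sex term, leaving out 1 array gave 0 to 12 in the single mutant, 0 to 7 in the double mutant, 0 to 0 between the mutants and 3 to 11 for females against males, and no filter gave 4 for the last, with 22180 genes adjusted over. The cause of the other changes was not tested. The median difference of all genes with the sex term was -0.15 in the single mutant, -0.04 after quantile normalization, -0.04 after cyclic loess and -0.19 after median centring. Replicate numbers did not pair the arrays (correlations of deviations from -0.58 to 0.26), and with the replicate block 0 members were called in each comparison by genotype alone, and 10, 9 and 0 with the sex term, and 11 for females against males. Of 1265 recomputed values of named genes, 1095 kept direction and side of the threshold, 125 lost the call, 39 gained it and 6 changed sign. Of these 6, 5 arose when 1 array was left out. Cyp4a31 between the mutants by genotype alone ranged from -0.0022 (without single mutant 2) to 0.91, and Cyp1b1 in the single mutant with the sex term from -0.088 (without single mutant 2) to 1.64. Cyp4a14 with the sex term ranged from -2.90 to 0.54 (without wild type 1) in the single mutant and from -2.14 to 1.31 (without wild type 1) in the double mutant. In the double mutant it was 0.071 without single mutant 2 and also in males only, which is the same fit. The difference of the mutants between the sexes was not refitted with array weights, the replicate block or an array left out. With 1 male per mutant group, small differences in males could not be told from array noise.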
